A study of Mus musculus with 2 samples.

Results

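The mir-30 family of the mouse consisted here of 6 microRNA (miRNA) genes, Mir30a, Mir30b, Mir30c-1, Mir30c-2, Mir30d and Mir30e, out of 1973 miRNA genes in each count table. They were chosen by name, through the Ensembl identifier of each row and the GENCODE symbol it carries. This rule used no values, though earlier results of these data were known. The libraries came from midbrain of healthy B6NCrl mouse embryos at embryonic day 16.5, with male and female embryos pooled. There was 1 group of 2 libraries, labelled biological replicates 1 and 2; the pool behind replicate 2 held 37 embryos, per the labels. No genotype, treatment or second stage was compared, so the data show which mir-30 genes were read in this tissue, in what proportion, and how far the libraries differed. Pooled tissue mixes all cell types of the midbrain, and more cells carrying a miRNA cannot be told apart from more of it per cell.

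A miRNA is cut from a hairpin precursor as a short duplex, and either strand of it (the 5p or the 3p arm) can be loaded into an Argonaute protein. The loaded arm finds target mRNAs mainly through its seed, bases 2 to 8, and represses them. The mir-30 genes lie in the genome as pairs, and their 5p arms carry a common seed. In other tissues and in human cells the family is known for repressing Becn1, which starts autophagy, and Snai1, a driver of epithelial-mesenchymal transition, and miR-30a-5p is known to repress the neurotrophin gene Bdnf in brain.

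The mature sequences are shown because they define the family and because they decide which reads can be assigned to a single gene. Of the 6 genes, 4 matched the RefSeq table (build GRCm38.p6), and Mir30d and Mir30b are given by name only. Each sequence is written 5′ to 3′ with its seed in capitals. Mir384, on chromosome X, is included as the other gene of the RefSeq table with that 5p seed.
miR-30e-5p (Mir30e): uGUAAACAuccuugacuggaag
miR-30a-5p (Mir30a): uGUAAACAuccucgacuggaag
miR-30c-5p (Mir30c-1 and Mir30c-2): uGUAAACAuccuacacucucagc
miR-384-5p (Mir384): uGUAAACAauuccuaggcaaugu
miR-30e-3p (Mir30e): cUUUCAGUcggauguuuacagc
miR-30a-3p (Mir30a): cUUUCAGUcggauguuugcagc
miR-30c-1-3p (Mir30c-1): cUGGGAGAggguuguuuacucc
miR-30c-2-3p (Mir30c-2): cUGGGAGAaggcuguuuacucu

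All the 5p arms shown carry the seed GUAAACA, which pairs with the site UGUUUAC in a target. Of 1679 mature arms in the RefSeq table, 4 (0.238%) hold this seed at bases 2 to 8. These are the 4 different 5p arms listed. The RefSeq table has no entry for Mir30d or Mir30b, so their arms are missing from every seed count given here. The 3p arms fall into separate seed groups. Those of Mir30a and Mir30e share UUUCAGU, found in no other arm that the table holds, which leaves the arms of Mir30d and Mir30b unchecked. Those of Mir30c-1 and Mir30c-2 share UGGGAGA, found also in an arm of Mir6958, a gene with 35 sense reads in replicate 1 and 43 in replicate 2. Counted from 1 at the 5′ end, miR-30e-5p differs from miR-30a-5p by C13U alone, and miR-30e-3p differs from miR-30a-3p by G18A alone. miR-30c-5p is identical to miR-30a-5p over the first 12 bases, and miR-384-5p over the first 8. The tables count reads per gene, so the arms of a hairpin could not be measured apart.

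Each member is placed on mm10 (GRCm38) as GENCODE M21 gives it. In the first pair, Mir30e (ENSMUSG00000065409.1; chromosome 4, 120772606 to 120772697) and Mir30c-1 (ENSMUSG00000065490.1; 120769534 to 120769622) lie on the minus strand, 2983 bases apart, in introns of Nfyc, which encodes a subunit of the CCAAT-binding factor NF-Y. Mir30f is annotated on the opposite strand at the place of Mir30e and was not analysed here, and Mir30e had 0 reads on that opposite strand in either library, as did the other 5 members on theirs. In the second pair, Mir30d (ENSMUSG00000065437.1; chromosome 15, 68341208 to 68341289) and Mir30b (ENSMUSG00000065476.2; 68337415 to 68337510) lie on the minus strand, 3697 bases apart. Mir30d overlaps an exon of the long noncoding RNA gene Gm20732, and Mir30b an exon of the noncoding transcript Gm26621. In the third pair, Mir30a (ENSMUSG00000065405.2; chromosome 1, 23272269 to 23272339) and Mir30c-2 (ENSMUSG00000065567.1; 23291701 to 23291784) lie on the plus strand, 19361 bases apart. Mir30a overlaps no other annotated gene, and Mir30c-2 overlaps an exon of the long noncoding RNA gene Gm27028.

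Replicate 1 held 6151299 sense-strand miRNA reads and replicate 2 held 5312642, and a level is a count scaled to CPM (counts per 1000000 of these reads). Of the 1973 genes, 411 were detected, meaning 10 or more sense reads in both libraries, and all 6 mir-30 genes were among them. The tissue label was checked on miRNAs of known cell types. Of 13 brain and neuron genes analysed 11 were detected, with summed levels of 27345 CPM in replicate 1 and 26446 CPM in replicate 2. Most of this sum came from Mir137 (15865 and 14350 CPM) and Mir153 (6142 and 5594 CPM). Every other gene of the list stood at 2729 CPM or less in each library. The 3 copies of mir-124, the defining neuronal miRNA, were nearly unread at 5.36 CPM or less per copy in replicate 1 and 4.71 CPM or less in replicate 2; their part in the reads that map to several places was not tested. Endothelial Mir126a stood at 23067 and 24810 CPM. Sums for blood (410 and 487 CPM), epithelium (1327 and 689 CPM), liver (74.9 and 55.3 CPM) and muscle and heart (39.8 and 38.4 CPM) were lower, and of 7 muscle genes 3 had 0 reads in both libraries. All 7 epithelial genes were detected and read higher in replicate 1, where 5 of them, the mir-200 family, stood 2.79-fold to 8.33-fold above replicate 2. Mir429 of that family had 419 CPM in replicate 1 and 59.5 CPM in replicate 2, while Mir203, the highest of the list, had 627 and 546 CPM. The part of epithelial tissue in the library differences of mir-30 genes was not tested.

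The mir-30 genes together held 4.27% ± 0.040 of sense miRNA reads (mean ± SD, n = 2). In replicate 1 they held 264567 reads, or 4.30% (95% Wilson interval 4.28 to 4.32), and in replicate 2 they held 225502 reads, or 4.24% (4.23 to 4.26). When genes are grouped by the number in their symbol, mir-30 had rank 4 of 853 such groups by mean level, after mir-99, let-7 and mir-335. It had rank 4 in replicate 1 and rank 5 in replicate 2. Reads that map to several places are in none of these levels, and their part in the ranks was not tested.

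In counted reads the family split sharply into abundant and scarce genes. Mir30e was the highest, with 23564 CPM in replicate 1 and 22331 CPM in replicate 2 (22947 ± 872 CPM, mean ± SD, n = 2), which placed it 10th and 11th among all genes of its library. Mir30a followed with 11069 and 10516 CPM (10792 ± 391 CPM; ranks 17 and 19). Mir30d stood at 8118 and 9357 CPM (8738 ± 876 CPM; ranks 23 and 21). These 3 genes held 99.4% of counted mir-30 reads in each library. Reads that map to several places, as full-length miR-30c-5p reads do, were not counted. Their part in this split was not tested.

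The other 3 genes lay far below in counted reads. Mir30b had 147 CPM in replicate 1 and 141 CPM in replicate 2 (144 ± 4.44 CPM). Mir30c-1 had 67.3 and 57.6 CPM (62.5 ± 6.86 CPM), from 414 and 306 reads. Mir30c-2 had 44.1 and 43.9 CPM (43.96 ± 0.140 CPM), from 271 and 233 reads. Against the detected genes by mean level, Mir30b lay above 51.6% of them, Mir30c-1 above 42.1% and Mir30c-2 above 36.7%, whereas Mir30d, the lowest of the abundant genes, lay above 94.9%.

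**Figure D1:**
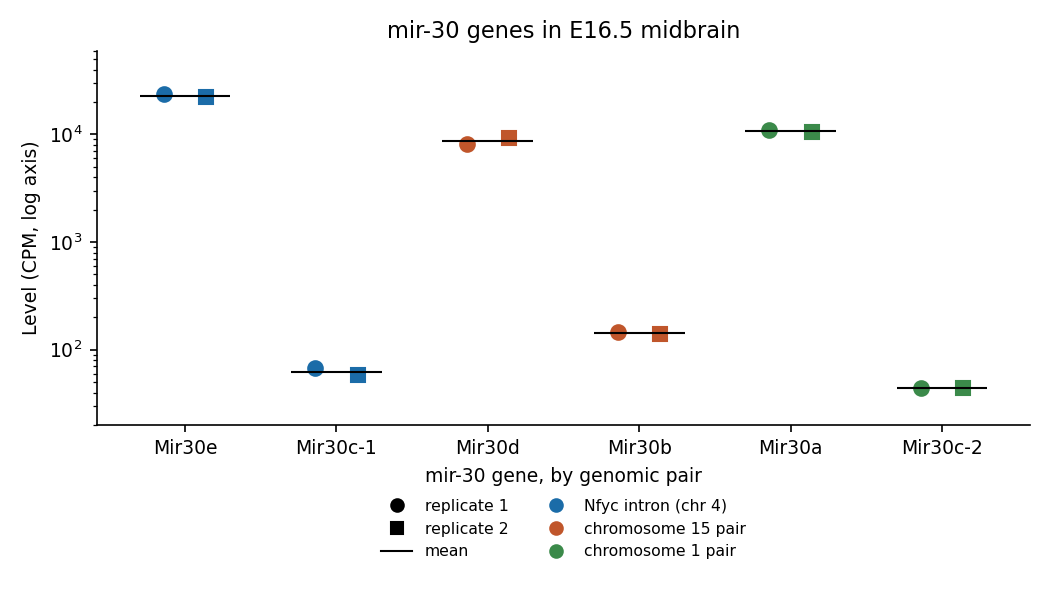
Level of each mir-30 gene in CPM on a log axis, in genomic pairs, with a circle for replicate 1, a square for replicate 2 and a line at their mean. In each pair 1 gene lies between 8118 and 23564 CPM and its partner between 43.9 and 147 CPM. Only counted reads are shown, without those that map to several places.

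The order by level was Mir30e, Mir30a, Mir30d, Mir30b, Mir30c-1 and Mir30c-2, and it was the same in both libraries. No neighbours in this order had overlapping values. The closest were Mir30a and Mir30d, where Mir30a was 1.36-fold higher in replicate 1 and 1.12-fold higher in replicate 2, and Mir30c-1 and Mir30c-2, at 1.53-fold and 1.31-fold. The widest step was from Mir30d to Mir30b, at 55.1-fold in replicate 1 and 66.3-fold in replicate 2. A read of below 30 nt covers an arm and not the hairpin, so levels were not divided by hairpin length. Divided by it, the order stayed as it was, from 24943 CPM per 100 bases for Mir30e to 52.3 for Mir30c-2. These steps were not tested, because both genes of a step are read in the same 2 libraries, which are too few. Even with the pairing by library ignored, the smallest two-sided p of an exact permutation test, 2 against 2, is 0.333.

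**Figure D2:**
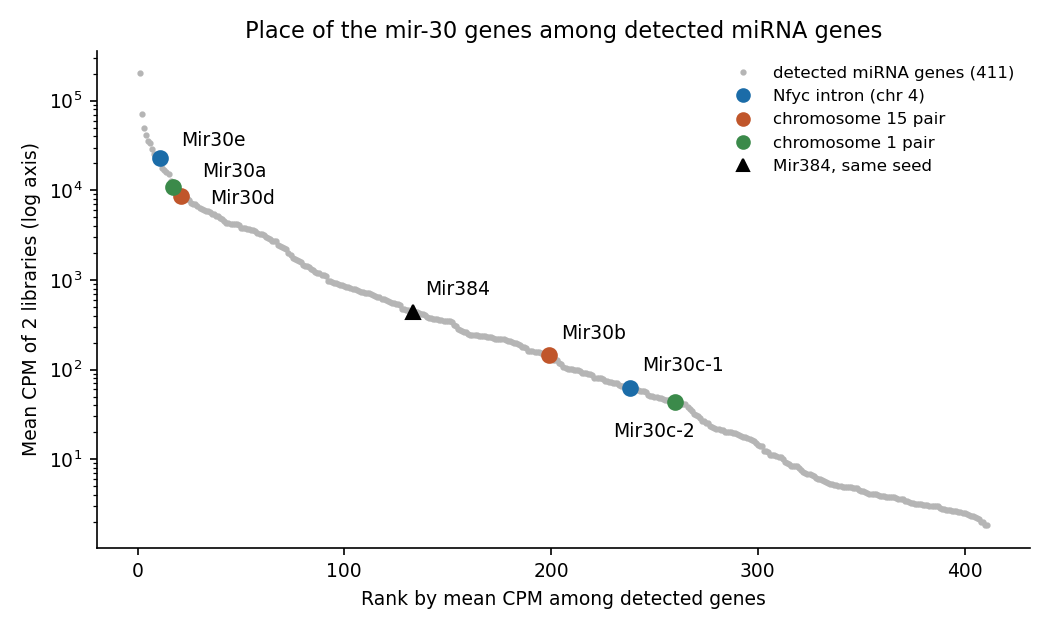
Mean CPM of both libraries (log axis) against rank for the 411 detected miRNA genes in grey, with mir-30 genes coloured by genomic pair and Mir384 as a triangle. Mir30e, Mir30a and Mir30d have ranks 11, 17 and 21, while Mir30b, Mir30c-1 and Mir30c-2 have ranks 199, 238 and 260.

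In every pair a single gene held nearly all counted reads. In the Nfyc intron, Mir30e had 350 times the reads of Mir30c-1 in replicate 1 (exact 95% interval 318 to 387) and 388 times in replicate 2 (347 to 435). On the log2 scale this ratio was 8.53 ± 0.104 (SD, n = 2). On chromosome 1, Mir30a had 251 times the reads of Mir30c-2 in replicate 1 (223 to 284) and 240 times in replicate 2 (211 to 274), or 7.94 ± 0.048 on the log2 scale. On chromosome 15, Mir30d had 55.1 times the reads of Mir30b in replicate 1 (51.6 to 58.9) and 66.3 times in replicate 2 (61.7 to 71.3), or 5.92 ± 0.189. The intervals of the libraries overlapped for the Nfyc and chromosome 1 pairs and not for the chromosome 15 pair. They cover counting error only, and reads without molecular identifiers need not be independent molecules. Full-length miR-30c-5p reads match both Mir30c copies, and reads that map to several places were not counted. The ratios of the Nfyc and chromosome 1 pairs thus hold for the counted reads alone.

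The low counts of the Mir30c copies are uncertain, and runs that Mir30b or Mir30d may share with other hairpins were not analysed here. Their hairpins are shown with the longest run of bases that they have in common in capitals, because a read that lies inside it matches both places.
Mir30c-1 hairpin: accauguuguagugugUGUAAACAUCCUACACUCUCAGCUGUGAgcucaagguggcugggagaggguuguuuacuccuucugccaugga
Mir30c-2 hairpin: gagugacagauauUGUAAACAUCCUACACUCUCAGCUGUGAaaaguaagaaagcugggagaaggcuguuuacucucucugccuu

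The run has 28 bases, and the 23 bases of miR-30c-5p are its first 23. A full-length miR-30c-5p read therefore cannot be placed at Mir30c-1 rather than Mir30c-2, whereas the 3p arms of the copies differ at 3 of 22 positions. Mir30a and Mir30e share at most 18 bases with each other and no longer run with any other hairpin of the table, which lacks Mir30d and Mir30b. The tables list reads that mapped to several places without naming their genes. These numbered 4816290 in replicate 1 and 4391928 in replicate 2, which is 18.2 and 19.5 times all mir-30 reads of the same library. How many of them came from miR-30c-5p was not tested, and the order of the Mir30c genes against the rest of the family holds for the counted reads alone. Of 1005 hairpins in the RefSeq table, 4.68% share a run of 28 bases with another.

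By genomic pair, the Nfyc intron gave most of the counted mir-30 reads, the chromosome 1 pair came next and the chromosome 15 pair last. Reads that map to several places are not in these shares, and their part at each pair was not tested. The Nfyc pair held 54.9% of mir-30 reads in replicate 1 and 52.7% in replicate 2 (53.8% ± 1.55). The chromosome 1 pair held 25.8% and 24.9% (25.4% ± 0.679). The chromosome 15 pair held 19.2% and 22.4% (20.8% ± 2.23). The order was the same in both libraries, and the ranges of the pairs did not overlap.

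Levels of the members differed little between the libraries. Of the 6 mir-30 genes 0 were 1.2-fold or more apart, against 35.5% of the 411 detected genes (146 genes) and 16 of the 91 genes at 1000 CPM or more (17.6%). The median log2 ratio of replicate 1 over replicate 2 was 0.07 over the 6 members and 0.06 over all detected genes. The median size of the ratio was 0.08 over the members and 0.18 over all detected genes. Over the 91 genes at 1000 CPM or more it was 0.12. Mir30d (-0.20) and Mir30c-1 (0.22) were larger in size than the medians of both gene sets, and the other members were smaller. Each library stands alone on its side of this ratio, so it has no replicate check.

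Mir30d went the other way from the 5 other members. Its log2 ratio of replicate 1 over replicate 2 was -0.20 (exact 95% interval -0.22 to -0.19), so it was 1.15-fold higher in replicate 2. Mir30e had a ratio of 0.08 (0.07 to 0.09) and Mir30a of 0.07 (0.06 to 0.09), both slightly higher in replicate 1. With TMM factors, a scaling that discounts the most extreme genes, these 2 ratios shrank to 0.03 each and that of Mir30d was -0.25. Mir30c-1 had 0.22 (0.008 to 0.44). The intervals of Mir30b, at 0.06 (-0.08 to 0.20), and of Mir30c-2, at 0.007 (-0.25 to 0.27), included 0. The sign of Mir30c-2 turned with the scaling and was -0.04 with TMM factors, while the other 5 signs held. An interval without 0, seen for 4 of the 6 members, was common: 213 of the 411 detected genes (51.8%) and 83 of the 91 genes at 1000 CPM or more (91.2%) had one.

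**Figure D3:**
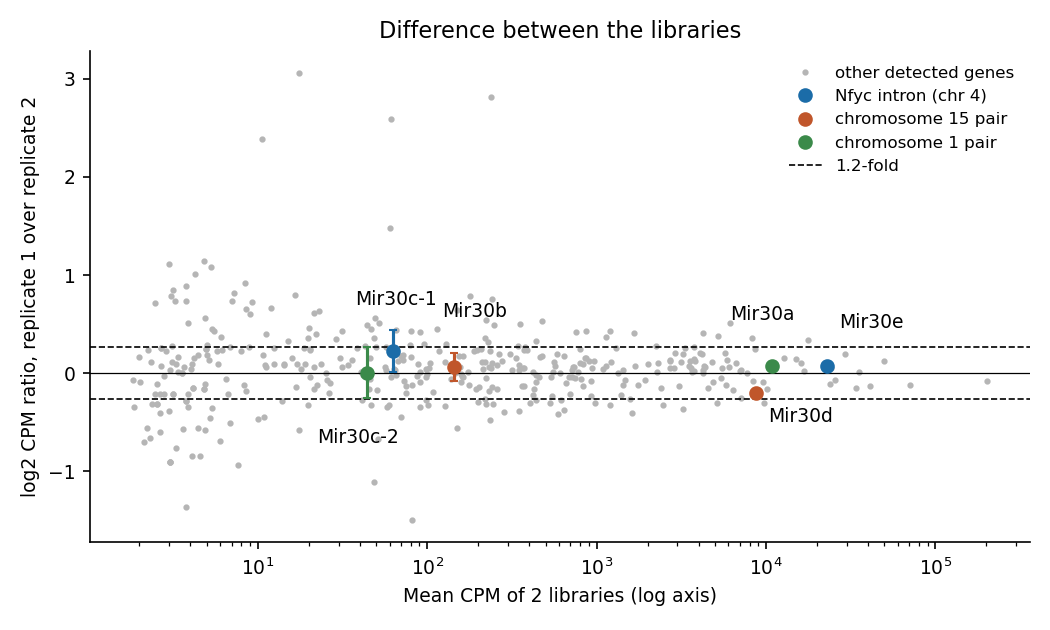
Log2 ratio of CPM, replicate 1 over replicate 2, against mean CPM (log axis) for the 411 detected genes in grey and the mir-30 genes in colour, with exact 95% intervals for counting error. The points of all 6 mir-30 genes lie inside the dashed lines at 1.2-fold, with that of Mir30d alone below 0. The intervals of Mir30c-1 and Mir30c-2 reach past the upper line.

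As ratios between members need no scaling, the same was seen within each library. Mir30e stood at 2.13 times Mir30a in replicate 1 (exact 95% interval 2.11 to 2.15) and 2.12 times in replicate 2 (2.10 to 2.15), which differ by less than counting error. Mir30e stood at 2.90 times Mir30d in replicate 1 (2.87 to 2.93) and 2.39 times in replicate 2 (2.36 to 2.41). The genes at the head of the Nfyc and chromosome 1 pairs thus kept their proportion between the pools, and the proportion of Mir30d to them moved by more than counting error, as the levels of most genes this abundant did. Whether it moved by more than the spread between pools of embryos cannot be tested with 2 libraries.

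Mir384 (ENSMUSG00000065499.1; chromosome X, 105344282 to 105344369) encodes miR-384-5p, which has been studied in synaptic plasticity in rodent hippocampus. It had 435 CPM in replicate 1 and 441 CPM in replicate 2 (438 ± 4.10 CPM, n = 2), with a log2 ratio of -0.02 (exact 95% interval -0.10 to 0.06). It thus lay below Mir30d and above Mir30b, with no overlap in values with either. Of the reads at these 7 genes, Mir384 held 1.00% in replicate 1 and 1.03% in replicate 2. Together the 7 genes held 4.34% and 4.29% of sense miRNA reads.

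Likeness of level was measured as the Euclidean distance in log2(CPM + 1) over the 2 libraries, and the nearest gene outside the family was taken for each member. For Mir30e this was Mir99b, with 24749 CPM in replicate 1 and 23790 CPM in replicate 2 (distance 0.116). For Mir30a it was Mir127, at 9525 and 10677 CPM (0.218), and for Mir30d it was Mir382, at 8102 and 8560 CPM (0.128). For Mir30b it was Mir669c, at 146 and 145 CPM (0.044). For Mir30c-1 it was Mir27a, at 64.9 and 63.1 CPM (0.139), and for Mir30c-2 it was Mir490, at 44.7 and 44.4 CPM (0.027). With 2 libraries of 1 group, this likeness is one of level only.

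Other families of several genes were set beside mir-30. The mir-30 family held 4.27% ± 0.040 of sense miRNA reads, against 3.02% ± 0.102 for the 6 mir-181 genes and 1.67% ± 0.018 for the 3 mir-26 genes. The values did not overlap, and no test was run on 2 libraries. Reads that map to several places are in none of these sums or in the shares below. How many of them each family lost was not tested. The leading gene Mir30e held 54.8% of its family's reads in replicate 1 and 52.6% in replicate 2. Mir181c held a like share of its own, 54.1% and 53.0%, whereas Mir26b held 99.8% in both. At 1000 CPM or more there were 3 mir-30 genes, 4 mir-181 genes and 1 mir-26 gene. Hairpins with a long run in common were found at low and at high levels, and whether their reads lay inside it was not tested. Like the Mir30c copies, Mir26a-1 and Mir26a-2 were scarce, at 6.16 ± 0.720 and 25.4 ± 0.036 CPM, and share 25 bases. Mir181a-1 and Mir181a-2 share 28 bases and stood at 5423 ± 117 and 233 ± 21.04 CPM. Mir181b-2 and Mir181b-1 share 26 bases and stood at 1203 ± 251 and 9.02 ± 2.64 CPM.

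**Figure D4:**
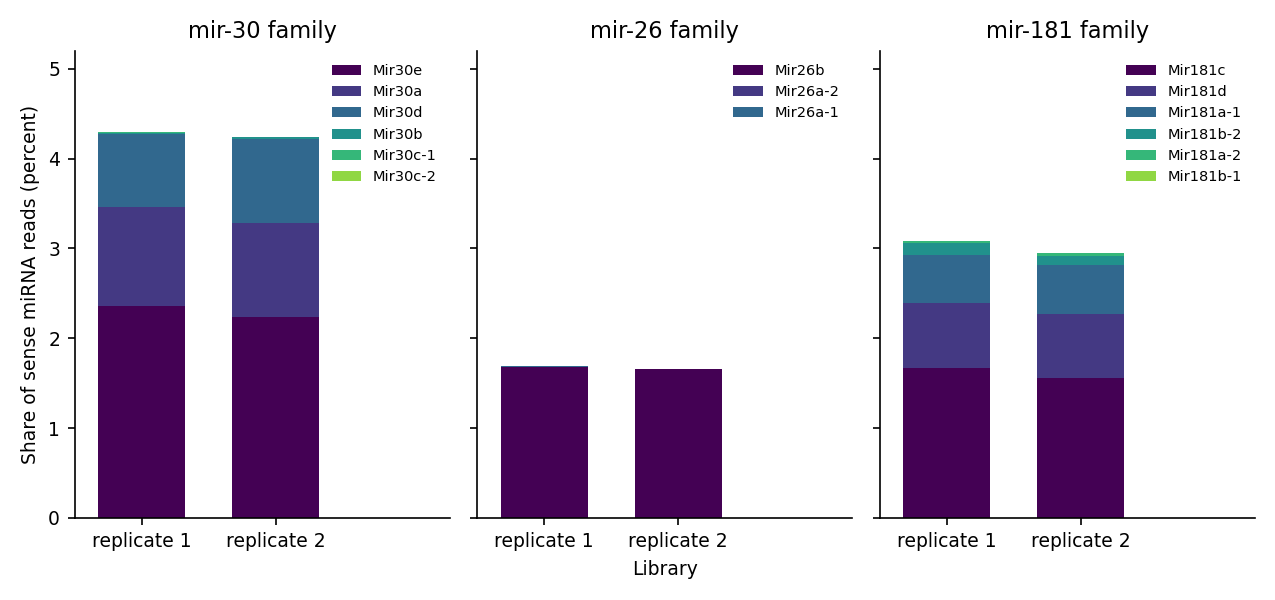
Share of sense miRNA reads in percent held by the mir-30, mir-26 and mir-181 families in each library, stacked by gene from the most abundant at the base. In the mir-30 family 3 genes make up nearly the whole bar of 4.30% in replicate 1 and 4.24% in replicate 2. Only counted reads are shown, without those that map to several places.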

How the data were processed

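Small RNA of below 30 nt from E16.5 midbrain was sequenced in 2 libraries. The deposited tables hold raw counts of reads per miRNA gene on mm10 with GENCODE M4, per the file descriptions deposited with them; for the aligner, counter and trimming, the tool is not given in the sources used here. Sense-strand counts (the second of 3 count columns) were used, and the rows that name no gene, 54.9% of 13638577 reads in replicate 1 and 55.8% of 12027645 in replicate 2, were left out. Reads that map to several places are thus not in any level.

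Identifiers without version were matched to GENCODE M21 (1894 of 1973). The table's Mir30a carries another version than M21, and its position is that of M21. CPM is over the summed sense column. Wilson intervals are given for shares and exact (Clopper-Pearson) ones for ratios. The ratio between libraries and its exact interval were run on counts simulated with counting error alone. That run does not probe the spread between pools, and ratios between genes of a library were not simulated. No p-value was computed, as there is 1 group. Named genes were the members, genes with their 5p seed, the nearest gene to each member, and sums of the mir-26 and mir-181 families. Mir6958, Mir137, Mir153, Mir126a, Mir429, Mir203 and single genes of those families were named after their values were seen. Members and lists were chosen with earlier results of these data known. Alternatives were TMM factors (edgeR 4.0.16, R 4.3.3), DESeq2 1.42.0 size factors, other columns, denominators, minimums and folds. Python 3.11.15, numpy 2.4.6, scipy 1.17.1, pandas 2.3.3 and matplotlib 3.10.9 were used. Differences in adapter ligation between miRNAs were not measured.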

Additional observations from a re-analysis of the deposited data

How the results depend on the processing

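Shares and pair ratios had 6 alternatives that changed a value, and 4 of these, all without the Mir30c copies, stayed within the SD between libraries. The other 2 moved the family's share: with reads of either strand as the total it was 4.17%, and with all reads of the library 1.91%, since the denominator grows. The Mir30c copies held a mean of 0.249% of mir-30 reads, so leaving out their counted reads could move a share only slightly. It does not probe reads that map to several places. Either strand gave identical values for 6 cluster shares and pair ratios, as no member had opposite-strand reads. Leaving out a replicate gave a family share of 4.24% to 4.30%, but with 2 libraries such a value always lies within their SD. Of 24 recomputed levels 7 moved by more than the SD, 6 of them with all reads as the total. Of 24 recomputed library ratios 9 left their counting interval, those of Mir30e, Mir30a and Mir30d with TMM factors, DESeq2 factors and all reads. Those of Mir30e were 0.03, 0.03 and 0.11, of Mir30a 0.03, 0.03 and 0.10 and of Mir30d -0.25, -0.25 and -0.17. The ratio of Mir30c-2 was -0.04 with both factors in place of 0.007. With these scalings and totals 0 mir-30 genes passed 1.2-fold, some of them narrowly. Closest to that fold were Mir30d with both factors, at a log2 ratio of -0.25, and Mir30c-1 with all reads, at 0.25. Counts past that fold over all genes, added after seeing the data, were 139 of 411 with TMM or DESeq2 factors, 154 with all reads and 149 of 422 with either strand. They were 90 of 309 with a minimum of 50 reads, 424 of 750 with none and 43 of 411 at 1.5-fold. A ratio between libraries has no value without a replicate. No paired analysis was possible because there is 1 group. Depth limits Mir30c-1 and Mir30c-2, whose counts lie between 233 and 414 reads.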
